A study of Mus musculus with 5 samples.

Results

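Transforming growth factor beta (TGF-beta) signalling was examined at the level of RNA in natural killer (NK) cells of mouse spleen. With earlier results of these data known, 10 genes were chosen by name out of the 56691 genes listed. They encode the receptors (Tgfbr1, Tgfbr2), the receptor-activated SMADs (Smad2, Smad3), their common partner (Smad4), the inhibitory SMAD (Smad7), the SMURF ubiquitin ligases (Smurf1, Smurf2) and the SKI family repressors (Ski, Skil). All 10 were found once each and had enough counts to be tested. Each also exceeded 3 times background, where background is the mean CPM per kb of exon over olfactory and vomeronasal receptor genes and both levels are means over the 5 libraries. The comparison was of 3 libraries labelled Fli1 KO, made after CRISPR knockout, with 2 labelled NTC, which the study set against them. FLI1 is an ETS transcription factor. The labels give no strain, age, sex, culture condition, guide position or number of animals, and they do not say whether the libraries of a group come from separate animals, so the spread behind each p is that between these libraries and may be technical. RNA was taken from a bulk population and enriched with capture probes. In such samples fewer cells of a type and less RNA per cell cannot be told apart.

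TGF-beta dimers bind the type II receptor TGFBR2, which recruits and phosphorylates the type I receptor TGFBR1. TGFBR1 then phosphorylates SMAD2 and SMAD3, which enter the nucleus with SMAD4 and bind short DNA elements beside other transcription factors. SKI and SKIL (also called SnoN) bind these SMAD complexes and recruit corepressors, while SMAD7 and the SMURF ligases act on the receptor and on SMADs in the cytoplasm. SKIL and SMAD7 are themselves transcribed in response to TGF-beta in many cell types, as negative feedback. In NK cells the cytokine is known to restrain cytotoxicity, interferon gamma and proliferation, and to favour features of tissue-resident type 1 innate lymphoid cells (ILC1).

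The promoters of both receptor genes are shown because the edited gene encodes an ETS factor, ETS proteins bind sites around a core of GGAA, and ETS sites in the human TGFBR2 promoter are known targets of ETS factors. Each window runs from 250 bases before to 50 bases after the RefSeq start site on GRCm38.p6, 5′ to 3′ along the gene. Capitals mark every GGAA on the printed strand and every TTCC, which is GGAA on the other strand. Tgfbr2 is read from the minus strand of chr9:116175314-116175613 and Tgfbr1 from the plus strand of chr4:47352972-47353271.
Tgfbr2: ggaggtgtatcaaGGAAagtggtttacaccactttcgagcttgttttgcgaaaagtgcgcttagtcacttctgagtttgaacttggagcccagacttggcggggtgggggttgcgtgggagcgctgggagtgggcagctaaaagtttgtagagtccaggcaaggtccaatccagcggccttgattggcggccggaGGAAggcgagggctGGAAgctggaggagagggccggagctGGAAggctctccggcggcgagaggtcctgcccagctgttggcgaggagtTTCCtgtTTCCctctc
Tgfbr1: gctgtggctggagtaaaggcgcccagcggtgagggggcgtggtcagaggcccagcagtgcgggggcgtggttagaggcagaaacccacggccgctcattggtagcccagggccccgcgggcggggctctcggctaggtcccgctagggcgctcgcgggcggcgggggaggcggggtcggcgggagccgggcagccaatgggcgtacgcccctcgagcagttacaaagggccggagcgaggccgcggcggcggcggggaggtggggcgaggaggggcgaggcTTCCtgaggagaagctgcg

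The Tgfbr2 window held 6 matches to the core, 2 of them just downstream of the start site with first bases 35 and 42, and the Tgfbr1 window held 1, with first base 32. Of 32851 RefSeq windows of the same length, 95.98% held at least 1 match, the median window held 3 and 28.59% held 5 or more, so that a match to 4 letters is common. Of the 10 genes 6 had a window in the table. In the others, Smad3 held 4 matches, Ski and Smurf1 2 each and Smurf2 1. A second RefSeq window of Tgfbr1, at a start site farther into the gene, held 6. The longer ETS sequence CCGGAA (or TTCCGG), which contains the core, was in none of these windows and in 14.9% of all windows. The SMAD-binding sequence CAGACA (or TGTCTG) was in the windows of Smurf1 and Smurf2, in the second Tgfbr1 window, and in 21.04% of all windows. These counts describe letters and not bound sites.

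The libraries held between 4718390 and 5643791 counts. The single gene Gm10800 took 10.3% of the counts in NTC 1 and 13.8 to 19.0% in the other libraries. Fli1 RNA stood at 390, 320 and 361 CPM in Fli1 KO 1 to 3, against 322 and 279 CPM in NTC 1 and 2, with overlapping groups (log2 fold change 0.25 ± 0.14 SE, adjusted p = 0.641). CRISPR breaks a reading frame without needing to lower the RNA, so this level is no check of the labels, on which all directions rest. All values are counts-per-million (CPM) scaled with TMM factors, which correct for differences in RNA composition. NK markers summed to 7466 to 10583 CPM in the Fli1 KO libraries and 5506 to 7710 CPM in the NTC libraries, with all 10 genes over 3 times background. Those sums were carried by Gzma, Il2rb and Prf1, and 5 of the 10 NK markers had positive and 5 negative log2 fold changes, none of them called. Averaged over the libraries, the 7 T cell and 5 B cell markers were at or below 3 times background, although Cd3d reached 3.36 and Cd3g 4.06 times in a single library. Of 9 myeloid markers only Itgax, which NK cells also express, was over that level (38.6 times), and of 5 stromal and endothelial markers only Pecam1 (16.3 times). Cdh5, another gene of that last list, lay at 0.690 times background.

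Skil, the SKI family repressor, was the gene that differed between the groups. It stood at 169, 127 and 155 CPM in Fli1 KO 1 to 3, against 81.1 and 83.6 CPM in NTC 1 and 2. Every Fli1 KO library lay above both NTC libraries, and Fli1 KO 2 was the lowest of its group. Skil averaged 150 ± 21.7 CPM in Fli1 KO (SD, n = 3) and 82.3 ± 1.71 CPM in NTC (SD, n = 2). It rose 1.82-fold (log2 fold change 0.87 ± 0.15 SE, 95% interval 0.57 to 1.17), with a Benjamini-Hochberg adjusted p = 0.00344 by the quasi-likelihood test of edgeR. The deposited counts behind these values were 839, 710 and 770 in Fli1 KO and 468 and 400 in NTC. Skil (ENSMUSG00000027660) lies on the plus strand of GRCm38 chromosome 3, 31095058 to 31122577, and no other annotated gene overlaps it. Its log2 fold change was 0.74 to 0.998 over all 13 alternatives. It was not called without Fli1 KO 1 (0.78, adjusted p = 0.0905) or without Fli1 KO 3 (0.86, adjusted p = 0.0881), and it was called in the other 11.

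Skil was the only one of the 10 genes called at an adjusted p under 0.05 (1 higher, 0 lower), where 0.546% of all 30580 tested genes were called, 0.458% higher and 0.0883% lower. Among the 7603 genes over 3 times background, 1.71% were called higher. DESeq2 and limma-voom each also called Skil and no other member.

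Ski, the founding member of the same repressor family, had values in the other direction that were not called. It stood at 85.1, 81.9 and 72.7 CPM in Fli1 KO 1 to 3, against 98.5 and 84.4 CPM in NTC 1 and 2. The groups overlapped, since Fli1 KO 1 lay above NTC 2. Ski averaged 79.9 ± 6.42 CPM in Fli1 KO (SD, n = 3) and 91.4 ± 9.96 CPM in NTC (SD, n = 2; log2 fold change −0.20, 95% interval −0.48 to 0.09, edgeR adjusted p = 0.730). The intervals of Skil and Ski did not overlap. Per kb of exon, the ratio of Skil to Ski was 1.14, 0.888 and 1.22 in Fli1 KO 1 to 3, against 0.473 and 0.568 in NTC 1 and 2. All 3 Fli1 KO ratios lay above both NTC ratios (mean difference 1.05 on the log2 scale). An exact two-sided permutation test over the 5 libraries, which doubles the smaller tail, gave p = 0.2 (0.333 after adjustment over the 5 ratios examined). With this doubling, 0.2 is the smallest value it can give with 3 against 2.

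**Figure D1:**
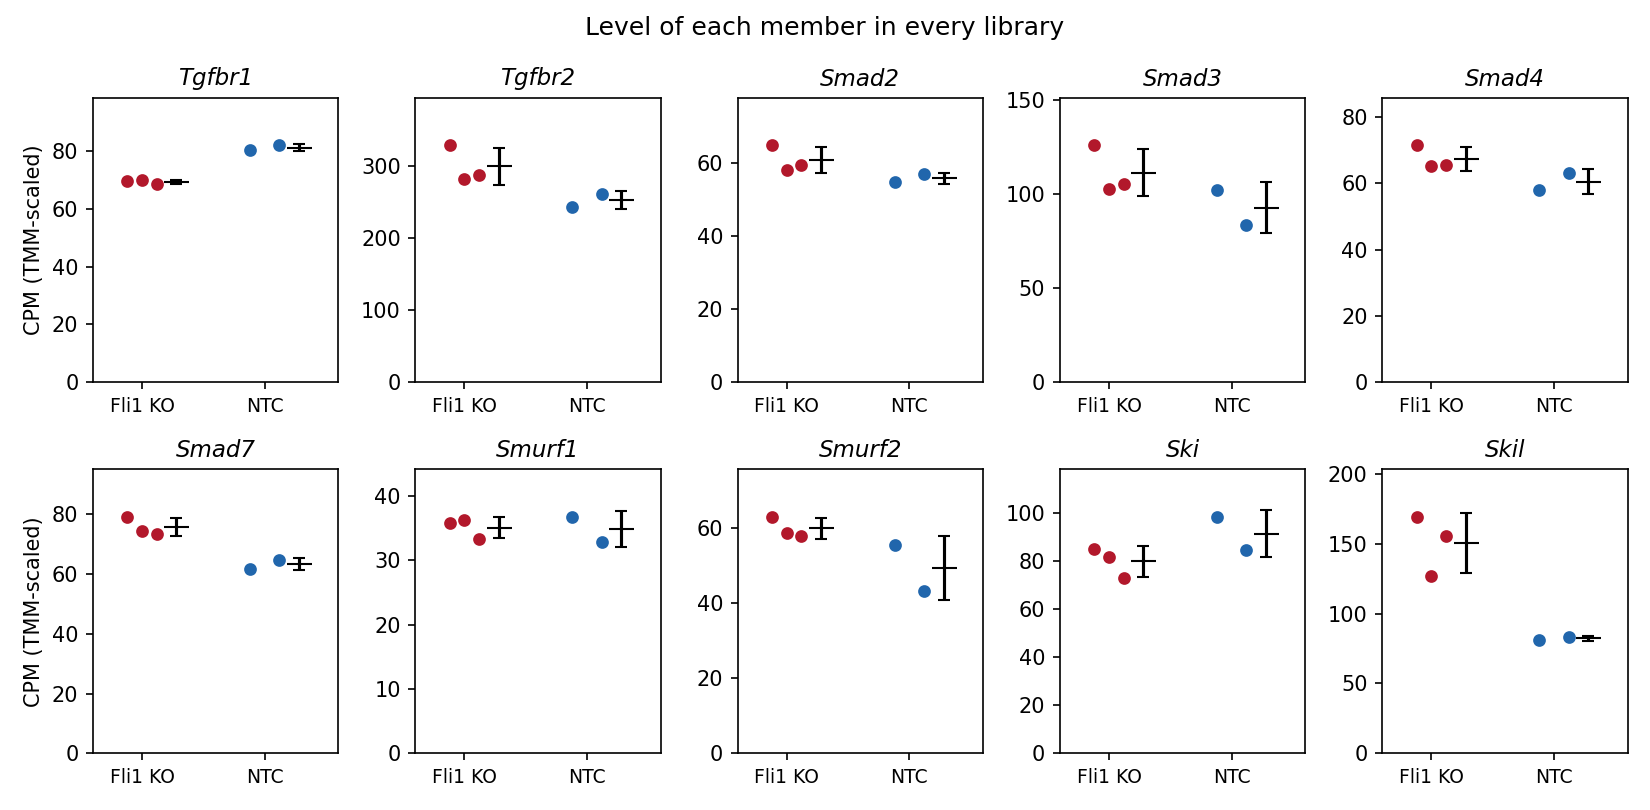
CPM of each gene in every library (points; Fli1 KO in red, NTC in blue), with the mean and SD of each group as black bars and axes that start at 0. Skil has its 3 Fli1 KO libraries at 127 to 169 CPM, above both NTC libraries at 81.1 and 83.6 CPM. The other genes differ by much less.

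The receptor genes had differences of opposite sign, and neither was called. Tgfbr2, the ligand-binding receptor, was the most abundant of the 10 and stood at 329, 282 and 289 CPM in Fli1 KO 1 to 3, against 244 and 262 CPM in NTC 1 and 2. The groups did not overlap, with means of 300.1 ± 25.5 CPM in Fli1 KO (SD, n = 3) and 253 ± 12.8 CPM in NTC (SD, n = 2) and a log2 fold change of 0.25 ± 0.14 SE (adjusted p = 0.629). Tgfbr1, the signalling kinase of the pair, stood at 69.8, 69.9 and 68.7 CPM in Fli1 KO 1 to 3, against 80.4 and 82.1 CPM in NTC 1 and 2. It was the one gene of the 10 with every Fli1 KO library below both NTC libraries, and its libraries were the tightest within groups, at 69.5 ± 0.664 CPM in Fli1 KO (SD, n = 3) and 81.3 ± 1.17 CPM in NTC (SD, n = 2). Its log2 fold change was −0.23 ± 0.13 SE (edgeR adjusted p = 0.643). Per kb of exon the ratio of Tgfbr2 to Tgfbr1 was 3.76, 3.22 and 3.35 in Fli1 KO, against 2.42 and 2.55 in NTC, again without overlap (exact two-sided permutation test p = 0.2, the smallest possible; 0.333 adjusted over the 5 ratios).

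The SMAD genes all had small positive log2 fold changes, of 0.12 to 0.26, and none was called. Most genes over 3 times background had positive values too (5363 positive, 2240 negative, median 0.11), so the shared sign does not set the SMAD genes apart. Smad3, which binds DNA directly, stood at 126, 103 and 105 CPM in Fli1 KO 1 to 3, against 102 and 83.4 CPM in NTC 1 and 2 (log2 fold change 0.26 ± 0.14 SE, edgeR adjusted p = 0.624). Fli1 KO 2 and NTC 1 were nearly equal, so the groups were separated by less than the spread within either. Smad7, the inhibitory SMAD and a feedback target of the pathway, stood at 79.1, 74.2 and 73.3 CPM in Fli1 KO, against 61.7 and 64.6 CPM in NTC (0.26 ± 0.13 SE, adjusted p = 0.589). The gap between the groups was wider than the spread within either group, but the difference did not pass the test.

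Smad4, the shared partner, averaged 67.3 ± 3.54 CPM in Fli1 KO (SD, n = 3) and 60.5 ± 3.66 CPM in NTC (SD, n = 2), with a log2 fold change of 0.16 (95% interval −0.12 to 0.43). Smad2, the other receptor-activated SMAD, averaged 60.9 ± 3.58 CPM in Fli1 KO and 55.9 ± 1.59 CPM in NTC, with a log2 fold change of 0.12 (−0.16 to 0.40). Both had groups that did not overlap, and the sign of Smad2 turned when libraries were scaled by size alone (−0.0037). The ratio of Smad3 to Smad2 per kb was 2.80 to 3.07 in Fli1 KO and 2.32 to 2.96 in NTC, and that of Smad7 to Smad3 was 0.770 to 0.884 in Fli1 KO and 0.740 to 0.949 in NTC. Both ratios overlapped between the groups (exact two-sided permutation tests, p = 0.6 and 1.0).

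The SMURF ligases, which mark SMADs and, through SMAD7, the receptors for degradation, were both uncalled. Smurf2 stood at 62.9, 58.7 and 57.8 CPM in Fli1 KO 1 to 3, against 55.3 and 43.2 CPM in NTC 1 and 2 (log2 fold change 0.28 ± 0.14 SE, edgeR adjusted p = 0.597). The groups did not overlap, and the NTC libraries were farther apart than the Fli1 KO libraries. Smurf1, the least abundant of the 10, stood at 33.2 to 36.2 CPM in Fli1 KO and at 32.8 and 36.8 CPM in NTC (0.01, 95% interval −0.29 to 0.31). Its groups overlapped entirely and the sign of its value depended on the scaling. The ratio of Smurf2 to Smurf1 per kb was 1.67 to 1.81 in Fli1 KO and 1.36 and 1.55 in NTC (exact two-sided permutation test p = 0.2, the smallest possible).

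**Figure D2:**
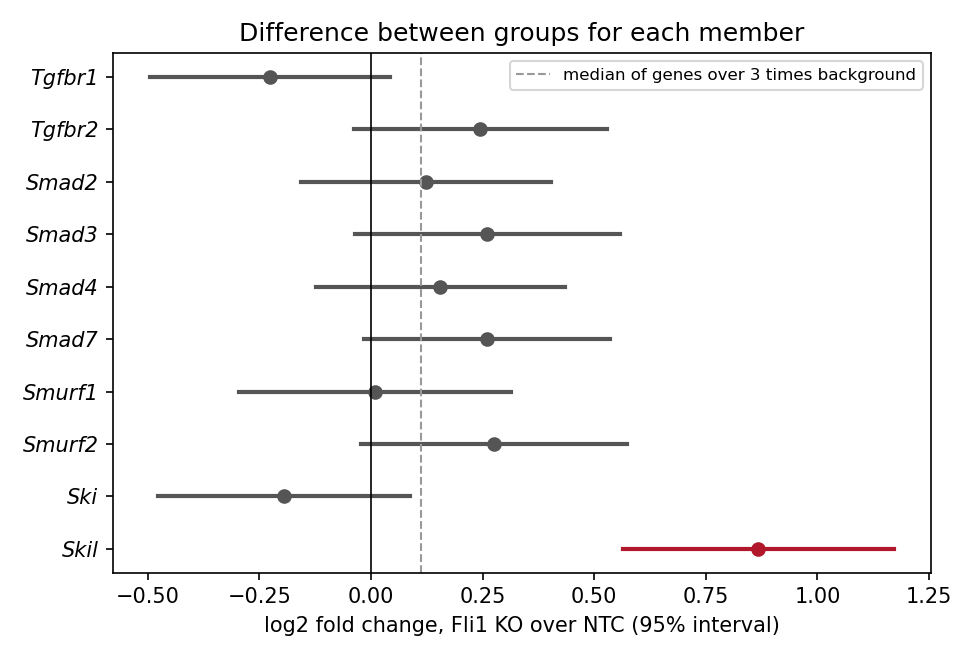
Log2 fold change of each gene, Fli1 KO over NTC (points), with its 95% interval (bars); the dashed line marks 0.11, the median of the genes over 3 times background. Only the interval of Skil, drawn in red, lies wholly above 0, and those of the other 9 genes include 0.

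Over the 10 genes, 8 values were positive and 2 negative, with a median log2 fold change of 0.20. The median was −0.02 over all tested genes and 0.11 over the genes over 3 times background, the class to which all 10 belong. All tested genes had 14553 positive and 16027 negative values, and that class had 5363 positive and 2240 negative. With no scaling factors the median over all genes was −0.14, and that of the 10 genes 0.073. Groups did not overlap in 8 of the 10 (7 higher, 1 lower), compared with 25.6% of all tested genes (11.9% higher, 13.7% lower) and with 34.1% of those over 3 times background (26.3% higher, 7.8% lower). Only 1 of the 10, Skil, had an unadjusted p under 0.05, against 8.94% of all tested genes (5.23% with a higher value in Fli1 KO). Among the genes over 3 times background that share was 18.3% (15.4% with a higher value).

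The order of the 10 genes by level was compared per kb of exon, with the limit that capture probes can recover genes unequally. In Fli1 KO, Tgfbr2 led with 36.7 ± 3.11 CPM per kb (SD, n = 3), followed by Smad3, Smad4, Smad7, Skil (15.5 ± 2.24), Ski (14.4 ± 1.15), Tgfbr1, Smurf2, Smad2 and Smurf1 (5.53 ± 0.250). In NTC, Tgfbr2 led with 30.9 ± 1.56 CPM per kb (SD, n = 2), followed by Smad3, Ski (16.4 ± 1.79), Smad4, Smad7, Tgfbr1, Skil (8.49 ± 0.177), Smurf2, Smad2 and Smurf1 (5.49 ± 0.442). Skil stood at place 5 in Fli1 KO and at place 7 in NTC. Neighbours whose libraries overlapped were Smad3 with Smad4, Smad7 with Skil and Skil with Ski in Fli1 KO, and Smad3 with Ski, Ski with Smad4 and Skil with Smurf2 in NTC.

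**Figure D3:**
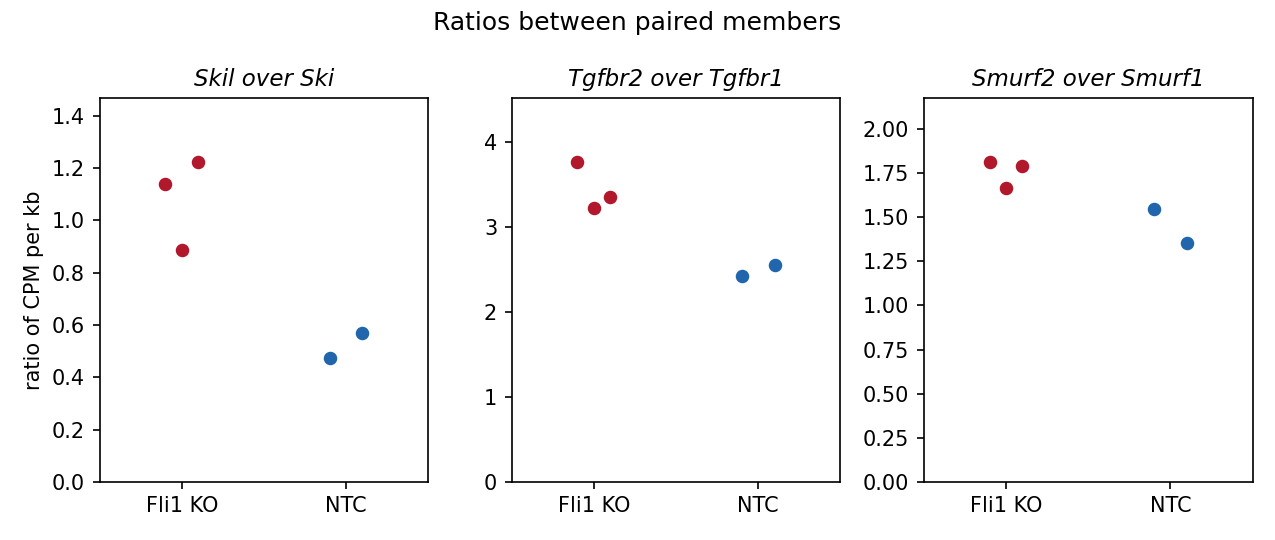
Ratio of CPM per kb of exon between paired genes in each library (points; Fli1 KO left in red, NTC right in blue; axes start at 0). The ratio of Skil to Ski is 0.888 to 1.22 in Fli1 KO and 0.473 to 0.568 in NTC, and those of Tgfbr2 to Tgfbr1 and Smurf2 to Smurf1 also do not overlap between the groups.

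The genes whose profile over the 5 libraries was nearest to that of Skil were sought among 17301 tested genes whose mean level reached 5 CPM. Likeness was the root mean square distance between log2 CPM values centred on each gene's mean. The nearest were Crem (distance 0.0485), a transcriptional modulator of the cyclic AMP response, Yrdc (0.0496), an enzyme of tRNA modification, Eif4a2 (0.0547), an RNA helicase of translation initiation, Mgarp (0.0651), a mitochondrial protein, and Med7 (0.0666), a Mediator subunit. Eif4a2 stood at 251, 176 and 204 CPM in Fli1 KO 1 to 3, against 111 and 115 CPM in NTC 1 and 2. Crem stood at 54.9, 43.7 and 50.6 CPM in Fli1 KO, against 26.4 and 29.2 CPM in NTC. Because these 5 were selected for matching Skil in the same libraries, their direction, their calls and the order of their libraries follow from the selection and are given as a description. Adjusted p was 0.00772 for Crem, 0.0265 for Yrdc and 0.00398 for Eif4a2, and 0.0520 for Mgarp and 0.0719 for Med7, which passed under 6 and 3 of the 13 alternatives. The calls of Crem, Yrdc and Eif4a2 were each lost without Fli1 KO 1 and without Fli1 KO 3, as was that of Skil, and the call of Yrdc also without NTC 2 and with library size alone. Of the other 9 genes of the pathway chosen here, Tgfbr2 was nearest to Skil (0.313, place 1821) and Ski and Tgfbr1 were the farthest (0.542 and 0.547).

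**Figure D4:**
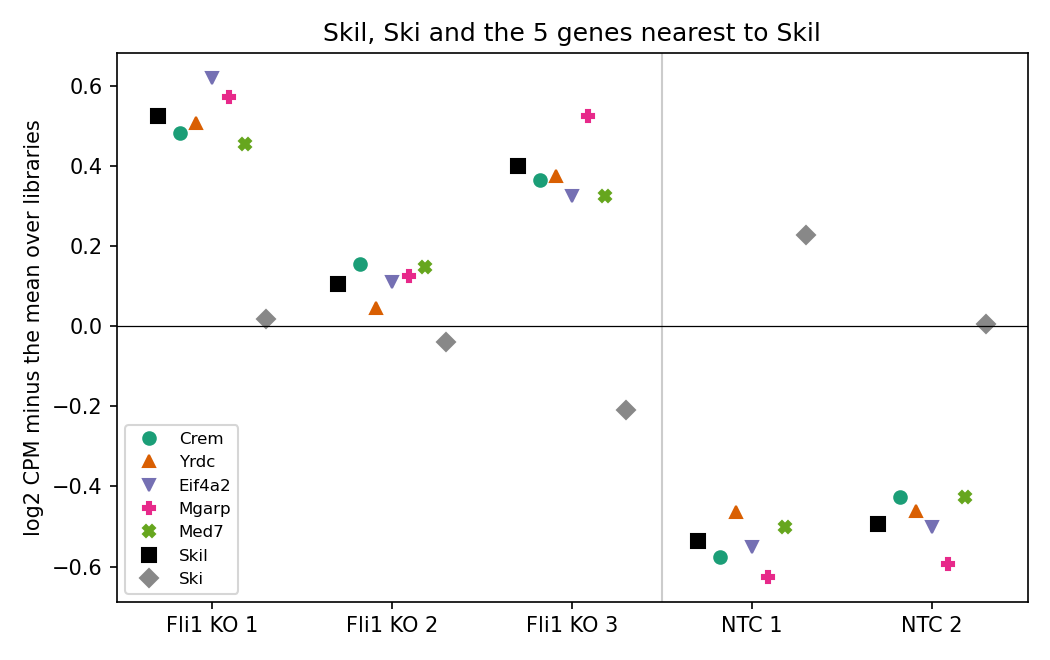
Log2 CPM minus the gene's mean over the 5 libraries for Skil (black squares), Ski (grey diamonds) and the 5 genes nearest to Skil (coloured symbols), with Fli1 KO libraries left of the line and NTC libraries right of it. Skil and its 5 neighbours are above 0 in each Fli1 KO library and below 0 in both NTC libraries, whereas Ski is not.

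Other genes of the pathway were read in 9 lists, 140 genes in all, of which 139 were tested. edgeR called 3 higher and 0 lower, where 0.546% of all tested genes were called (0.458% higher and 0.0883% lower). The median log2 fold change over the lists together was 0.04. With library size alone the calls were 2 higher and 1 lower and the median turned negative (−0.085), below 0 like that of all genes (−0.14). The 3 were Bhlhe40 among genes induced by TGF-beta in some cell types, and Myc and Ifng among genes repressed by it. Upstream of the receptors, edgeR called 0 of 13 ligands, with 1 unadjusted p under 0.05, and 0 of 15 genes of latency and release, with 2, where 8.94% of all tested genes had one. Neither DESeq2 nor limma-voom called any of them (0 each). Tgfb1, the TGF-beta of immune cells, had the smallest p among ligands. It stood at 111, 93.6 and 109 CPM in Fli1 KO 1 to 3, against 69.9 and 69.6 CPM in NTC 1 and 2, with every Fli1 KO library above both NTC libraries (log2 fold change 0.58 ± 0.14 SE, edgeR adjusted p = 0.0566). Of the alternatives with all 5 libraries, it passed with upper-quartile factors, with no filter, with at least 5 CPM in 2 libraries and with the replicate block. Ltbp3, which tethers latent TGF-beta, averaged 63.1 ± 4.08 CPM in Fli1 KO (SD, n = 3) and 44.1 ± 1.503 CPM in NTC (SD, n = 2; 0.52, adjusted p = 0.117). The other 12 ligands were at or below 3 times background. Platelet and erythroid markers, which include the platelet genes Pf4 and Ppbp, summed to 17.8 to 23.2 CPM in Fli1 KO and to 18.9 and 43.9 CPM in NTC 1 and 2. None of these 6 markers exceeded 3 times background on average over the libraries, but in NTC 2 Ppbp stood at 5.53 and Pf4 at 4.72 times that library's background, against at most 2.31 and 1.61 times in the other 4 libraries. Itga2b, another of these markers, stood at 25.3 CPM in NTC 2 and at 12.7 to 16.1 CPM in the other 4 libraries. Gp1bb was at 0 in Fli1 KO 1, Fli1 KO 2 and NTC 2, but with 0.0229 times background on average it had too few counts to be tested. Hba-a1 (0.123 times background) and Hbb-bs (1.04 times) were not tested either. The part of these platelet and erythroid markers in the Tgfb1 values was not tested.

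Downstream of the ligands, edgeR called 0 of 12 further receptors (2 at an unadjusted p under 0.05), 0 of 10 further SMADs and receptor anchors (2), 0 of 20 nuclear partners (3), 0 of 22 turnover enzymes (2) and 0 of 17 kinases of the SMAD-independent branch (4). Among all tested genes 8.94% had an unadjusted p under 0.05, and 18.3% among those over 3 times background. Only 0.546% of all tested genes were called, so 0 calls in lists of 10 to 22 genes do not set these lists apart. DESeq2 and limma-voom also called 0 in each of these lists. Runx3, a SMAD partner in lymphocytes named here after its values were seen, averaged 213 ± 22.8 CPM in Fli1 KO (SD, n = 3) and 154 ± 16.5 CPM in NTC (SD, n = 2; log2 fold change 0.47, adjusted p = 0.211). Rnf111, the Arkadia ligase that degrades SKI, SKIL and SMAD7 and was likewise named after its values were seen, averaged 83.9 ± 5.94 CPM in Fli1 KO and 84.9 ± 2.31 CPM in NTC (−0.02, 95% interval −0.29 to 0.26), with overlapping groups and a sign that turned under 4 alternatives. Hgs, an endosomal sorting protein that works with the receptor anchor SARA, had a log2 fold change of 0.43 (adjusted p = 0.257), Traf6, a ubiquitin ligase of the SMAD-independent branch, one of 0.38 (0.330), and Usp9x, a deubiquitinase of SMAD4, one of 0.29 (0.520). Eng, the coreceptor endoglin, lay at 0.892 times background, with a log2 fold change of −0.81 (adjusted p = 0.361).

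**Figure D5:**
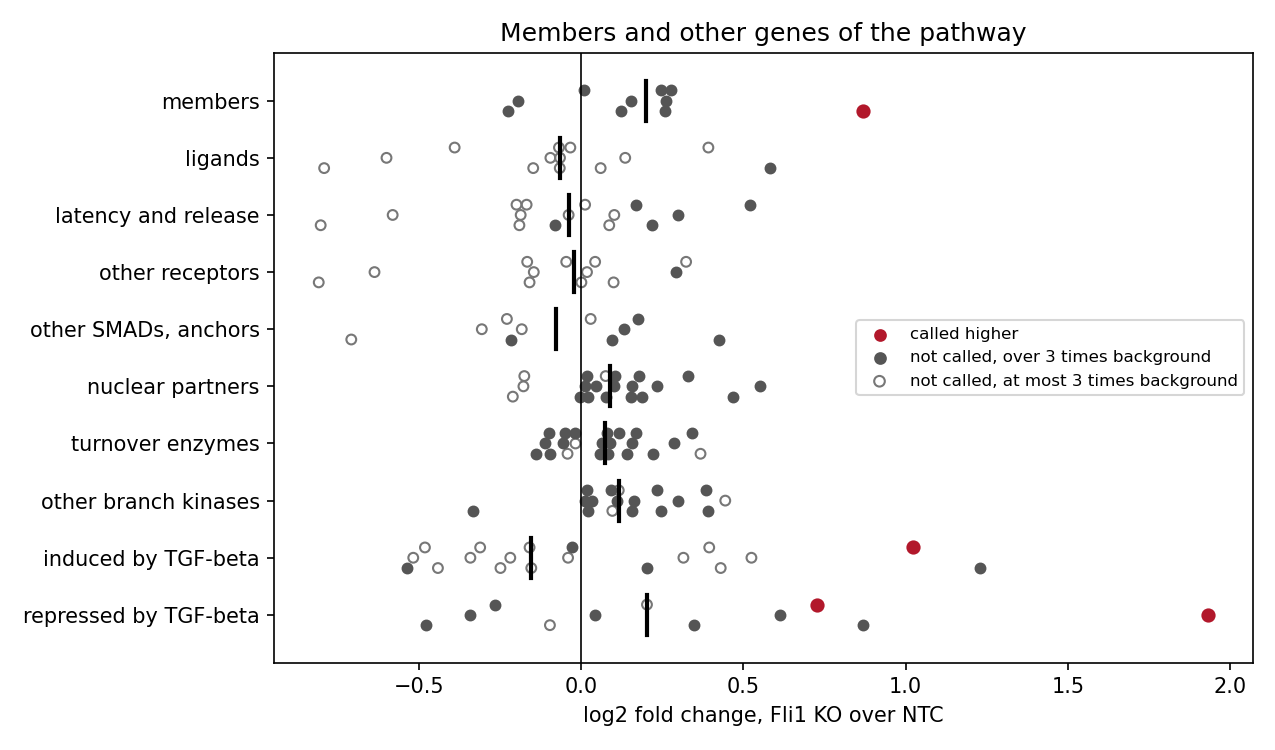
Log2 fold change, Fli1 KO over NTC, of each tested gene (points) of the 10 members and of 9 other lists of the pathway, with the median of each list as a black bar. Filled points lie over 3 times background, open points do not, and red points were called higher. Skil, Bhlhe40, Myc and Ifng are the red points.

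Genes that other cells switch on in response to TGF-beta did not move as one. Of 19 tested, 1 was called higher and 0 lower, where 0.458% of all tested genes were called higher and 0.0883% lower. The list had 7 positive and 12 negative values and a median log2 fold change of −0.15. All tested genes had 14553 positive and 16027 negative values and a median of −0.02. Those over 3 times background had 5363 positive and 2240 negative values and a median of 0.11. Bhlhe40, a transcription factor that is also induced by activation, stood at 536, 405 and 494 CPM in Fli1 KO 1 to 3, against 281 and 190 CPM in NTC 1 and 2, and rose 2.03-fold (log2 fold change 1.02 ± 0.17 SE, edgeR adjusted p = 0.00308). It was not called without Fli1 KO 1 (0.94, adjusted p = 0.102) or Fli1 KO 3 (1.01, 0.076). Cdkn1a, a cell cycle inhibitor, averaged 38.7 ± 13.7 CPM in Fli1 KO (SD, n = 3) and 16.3 ± 4.42 CPM in NTC (SD, n = 2; 1.23, adjusted p = 0.266), and DESeq2 called it. Pmepa1, a feedback inhibitor of SMAD signalling, was near background, at 7.66 to 9.45 CPM in Fli1 KO and 7.98 and 15.7 CPM in NTC (−0.44, adjusted p = 0.641). Ldlrad4, an inhibitor related to it, averaged 24.9 ± 3.71 CPM in Fli1 KO and 36.4 ± 9.07 CPM in NTC (−0.54, adjusted p = 0.266), and Itgae, the CD103 integrin chain, 7.92 ± 0.419 CPM in Fli1 KO and 11.03 ± 0.828 CPM in NTC (−0.48, adjusted p = 0.499). Cdkn1a, Pmepa1, Ldlrad4 and Itgae are named for their roles, after their values were seen. Of the 19 genes 14 were at or below 3 times background, which limits what their values can show.

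Genes that TGF-beta is known to hold down in lymphocytes or other cells had 2 of 11 called higher and 0 lower. Of all tested genes 0.458% were called higher and 0.0883% lower, and of those over 3 times background 1.71% were called higher. The list, chosen with earlier results known, had 7 positive and 4 negative values and a median of 0.20. Of the 11 tested, 9 were over 3 times background, a class with a median of 0.11 and 5363 positive against 2240 negative values. Ifng, which encodes interferon gamma, stood at 58.5, 43.0 and 46.8 CPM in Fli1 KO 1 to 3, against 14.2 and 11.5 CPM in NTC 1 and 2. It rose 3.81-fold, with every Fli1 KO library above both NTC libraries (log2 fold change 1.93 ± 0.18 SE, edgeR adjusted p = 1.66e-06). Ifng was called under all 13 alternatives. Myc, the growth regulator, averaged 191 ± 27.0 CPM in Fli1 KO (SD, n = 3) and 115 ± 16.8 CPM in NTC (SD, n = 2; 0.73 ± 0.15 SE, edgeR adjusted p = 0.0225). It was not called with library size alone (0.59, adjusted p = 0.0607), without Fli1 KO 1 (0.70, 0.260), without Fli1 KO 3 (0.66, 0.370) or without NTC 2 (0.59, 0.191). Prf1 and Tbx21, both also NK markers and named for their roles after their values were seen, had values of opposite sign that were not called. Prf1, which encodes perforin, stood at 1623, 1017 and 1395 CPM in Fli1 KO 1 to 3, against 923 and 550 CPM in NTC 1 and 2 (0.87 ± 0.23 SE, adjusted p = 0.192). Tbx21, which encodes the transcription factor T-bet, stood at 75.9, 68.5 and 73.6 CPM in Fli1 KO, against 95.2 and 107 CPM in NTC (−0.48 ± 0.13 SE, adjusted p = 0.145). Neither gene had overlapping groups. Of the alternatives with all 5 libraries, only the replicate block called Prf1. Tbx21 was called there with library size alone, with at least 5 CPM in 2 libraries and with the block. Calls under the block do not measure strength, as described below.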

How the data were processed

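Per the labels' protocols, total RNA from a column kit went into an Illumina enrichment library kit. The submitters' processing notes name FastQC 0.12.0, Trimmomatic 0.39, STAR 2.7.11 and the build mm10. How reads were counted, on which strand and with which annotation was not given in the sources used here. Values deposited by the authors are raw counts for each Ensembl ID.

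Of 56691 IDs, 52073 had a symbol in GENCODE M21 (GRCm38, the same assembly as mm10), which also gave positions and exon lengths. Genes passing edgeR's filterByExpr (minimum 10 counts; 30580 genes) were scaled with TMM and tested with the robust quasi-likelihood test of edgeR 4.0.16 in R 4.3.3, with all 5 libraries and p adjusted over all tested genes. A gene was called at an adjusted p under 0.05. SEs come from the F statistic. Background came from 1453 autosomal receptor genes. Motifs were searched on both strands of RefSeq windows of 300 bases. GTCTAGAC, a SMAD palindrome, was also searched and was in 0 of the members' windows and 0.21% of all windows. The fit was checked on simulated data.

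The 10 genes and all lists were chosen with earlier results of these data known. The text names the 10 genes, Fli1, per list every called gene or else the one with the smallest p, and the 5 genes nearest to Skil, and 11 more for their roles after their values were seen. A gene picked by this rule is not reported here. Alternatives were median-of-ratios, upper-quartile and no scaling factors, 2 other filters (none, or at least 5 CPM in 2 libraries), DESeq2 1.42.0, limma-voom (limma 3.58.1), a block for the replicate number and each library left out. Smad4 and Smurf1 have another gene within their span (a processed pseudogene and a microRNA gene) that overlaps no exon.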

Additional observations from a re-analysis of the deposited data

How the results depend on the processing

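Skil kept its positive value under all 13 alternatives and was the called member in 11. Without one library in turn, edgeR called 0 to 1 of the 10 genes, and where it called 0 (without Fli1 KO 1 or Fli1 KO 3) 1 had an unadjusted p under 0.05. Calls among the 139 other pathway genes numbered 5 with upper-quartile factors, 6 with at least 5 CPM in 2 libraries and 15 with the replicate block, and 1 to 19 with one library left out. Over all genes there were 167 calls, 295 with no filter, 921 with the replicate block and 49 to 877 with one library left out (49 without Fli1 KO 1, 64 without Fli1 KO 3 and 877 without NTC 1). Calls over all genes were 140 higher and 27 lower with TMM, and 92 higher and 71 lower with library size alone. The replicate numbers are shared between the groups only for 1 and 2, and the labels do not say that they mark a shared animal or day (correlations of deviations 0.0686 and 0.143). With the block, Skil had a log2 fold change of 0.84 (edgeR adjusted p = 6.8e-11), and no call of a member changed. Replicate 3 exists only in Fli1 KO, so the block takes up that library and the contrast rests on replicates 1 and 2. Few degrees of freedom are left, so this p and the 921 calls do not measure strength. Without either NTC library, the spread of the lone library is taken from Fli1 KO, and counts of calls from such fits do not measure strength. Counts of alternatives out of 13 in this text include the replicate block and these fits. Signs turned for Smurf1 with upper-quartile factors (−0.0078), library size alone (−0.12), at least 5 CPM in 2 libraries (−0.0129) and without NTC 2, for Smad2 with library size alone (−0.0037), for Rnf111 with DESeq2 (0.0030 with its size factors in edgeR and 0.0030 with its Wald test), without Fli1 KO 2 and without NTC 2 (0.018), and without NTC 2 for Pmepa1 and Il7r. With one library left out, log2 fold changes ran from −0.061 to 0.12 for Smurf1, −0.044 to 0.060 for Rnf111, −0.85 to 0.11 for Pmepa1 and −2.37 to 0.16 for Il7r. The cause was not tested for any of these. The 95% intervals of the 10 genes reached 0.27 to 0.30 on the log2 scale to either side of their values, so an estimate of 0.2 does not stand apart from 0 with these libraries.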

Other observations

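Markers of ILC1, the cell state that TGF-beta favours, had negative log2 fold changes in 4 of 4 tested, but of unlike size and spread. Of these 1 was called lower, where 0.0883% of all tested genes were. Tnfsf10, which encodes the death ligand TRAIL, stood at 42.0, 39.4 and 42.7 CPM in Fli1 KO 1 to 3, against 67.6 and 72.1 CPM in NTC 1 and 2, and was called lower (log2 fold change −0.76 ± 0.13 SE, edgeR adjusted p = 0.00551). It was not called without Fli1 KO 1 (−0.76, adjusted p = 0.0905) or Fli1 KO 3 (−0.76, 0.130). Itga1, the CD49a integrin chain, averaged 155 ± 2.96 CPM in Fli1 KO (SD, n = 3) and 159 ± 11.5 CPM in NTC (SD, n = 2). Il7r, the interleukin 7 receptor chain, was at 20.2 to 25.3 CPM in Fli1 KO and at 20.1 CPM in NTC 1, but at 117 CPM in NTC 2. Cxcr6, a chemokine receptor gene, was at 11.3 to 21.99 CPM in Fli1 KO, 19.1 CPM in NTC 1 and 48.9 CPM in NTC 2. Log2 fold changes were −0.03 for Itga1, −1.60 for Il7r and −1.04 for Cxcr6 (edgeR adjusted p = 0.977, 0.724 and 0.678). The sign of Il7r turned without NTC 2. The 4 markers were chosen with earlier results known, and Tnfsf10, Il7r and Cxcr6 are given in full after their values were seen.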
